A study of Mus musculus with 6 samples.

Results

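The control intestine of a tamoxifen time course was described here across its 3 days. The series measured RNA of mouse small intestine on 6 expression arrays, and the 3 arrays taken were those titled as L/L on day 2, day 3 and day 5. They were chosen by these labels alone and by no measured value. L/L mice carried no Cre transgene in their label. The other 3 arrays held ROSA26CreERT2 L/L mice, called KO in the labels, which carry the same alleles with a tamoxifen-activated Cre recombinase for deletion of Fitm2 and serve here only as a second set of pools from the same days. Both genotypes were given tamoxifen at 100 µg per g of body weight into the peritoneum, on days 1, 2 and 3. The intestine was flushed, frozen and extracted whole, so that epithelium, lamina propria, muscle and attached tissue were measured together. The arrays of days 2, 3 and 5 held RNA pooled from 6, 6 and 8 L/L mice and from 7, 6 and 7 KO mice. The spread between single mice therefore cannot be seen, and no L/L day had a second array. Not given in the sources used here are the strain, the age, the hour of sampling and whether mice taken on day 2 or day 3 had received the later doses. No L/L mice without tamoxifen are among the arrays, so day 2, which already followed the start of dosing, is the earliest point of every comparison.

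The small intestinal epithelium renews itself within days from stem cells at the base of the crypts. Most of its cells become enterocytes, which digest and absorb sugars, peptides and fat and export fat as chylomicrons. The remainder are goblet, Paneth, enteroendocrine and tuft cells, which make mucus, antimicrobial peptides, hormones and signals to immune cells. Tamoxifen is converted in the liver to ligands of the estrogen receptor. It is also known to lower food intake in rodents and to inhibit enzymes of sterol synthesis.

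The value for a gene is the linear intensity of its brightest probe set, a group of short probes on the array. A difference between days is the log2 ratio of 2 intensities, the later day over the earlier. After removal of dim probe sets 13042 genes remained, with 38.9 as the intensity below which a value was taken as dim. The 3 L/L arrays had median intensities of 59.3, 57.7 and 58.7 on days 2, 3 and 5. Their log2 intensities correlated at 0.994 between days 3 and 2, 0.993 between days 5 and 3 and 0.990 between days 5 and 2, across genes, which are not independent replicates. Array probes for the 3' and the 5' end of 2 housekeeping transcripts show how intact the labelled RNA was. The ratio of the 3' to the 5' signal of Actb was 1.18, 1.22 and 1.40 on days 2, 3 and 5, and that of Gapdh was 0.832, 0.855 and 0.985. In KO the ratios on the same days were 1.17, 1.17 and 1.27 for Actb and 0.830, 0.843 and 0.998 for Gapdh. Day 5 thus had the highest ratio in both genotypes and for both transcripts, and its part in the differences of day 5 was not tested. Xist, the RNA that coats the silenced X chromosome in females, had 2433, 3126 and 3052, and the Y-linked Eif2s3y had 338, 326 and 466. Every L/L pool therefore held RNA of both sexes, in proportions that the sources used here do not state.

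The brightest probe sets were those of enterocyte lipid handling and of general cell machinery. Brightness depends on the probes as well as on the RNA, so this order is not an order of abundance. Apoa1, the main protein of high-density lipoprotein, ranked highest, with 31146, 30926 and 29671 on days 2, 3 and 5. Fabp2, which binds fatty acids in enterocytes, followed with 26705, 26792 and 27464. Apoa4, a chylomicron protein, had 24434, 24573 and 22783, and Fabp1, the fatty acid-binding protein shared with liver, had 22723, 23809 and 22435. The 4 Apoa1 probe sets lay between 26289 and 31146 on all 3 days, while the dimmer Apoa4 probe set had 23563, 23529 and 19639. Whether signals this bright still follow the amount of RNA was not tested. Zg16, a goblet cell lectin, Muc3, a membrane mucin, Lgals4, a gut galectin, Krt8, an epithelial keratin, and Reg3b, an antimicrobial lectin, were also among the 20 brightest. So were Selenop, Fth1, Cox6a1, Slc25a5, Atp1b1, Crip1, Plac8, Actb, Tpt1, Eef1a1 and Rps29. Over the 3 comparisons the differences of these 20 genes lay between -0.24 and 0.37 on the log2 scale. Both ends of that range were Reg3b, which had 20724 on day 2, 17490 on day 3 and 22652 on day 5.

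**Figure D1:**
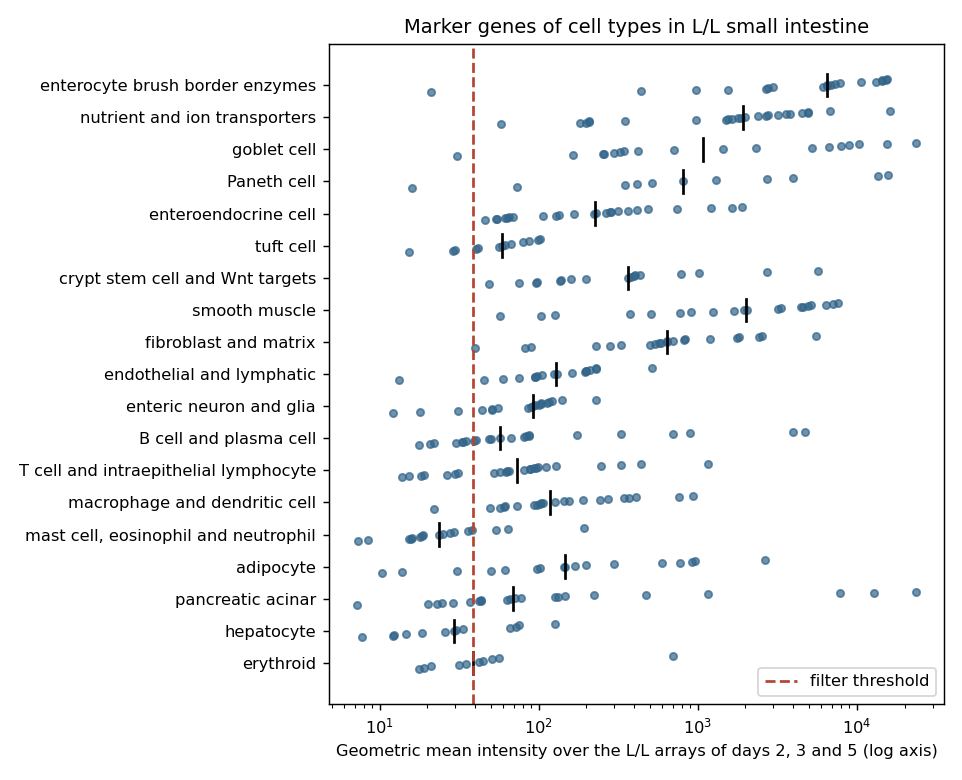
Geometric mean intensity over the 3 L/L arrays (log axis) of each measured marker gene, 1 point per gene, in rows by cell type, with the median of each list as a black tick and the dim limit of 38.9 as a dashed line. Enterocyte brush border genes and smooth muscle genes lie to the right. Most markers of mast cells and granulocytes, hepatocytes and red cells lie near or left of the limit.

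Markers of the labelled tissue were bright in L/L. The brush border list holds mostly enzymes, beside structural proteins such as Vil1. Of its 19 genes with a probe set of their own, 18 were measured above the filter. Of these, 15 lay above the 90th percentile of all genes. Lct, the lactase, had 16053, 13982 and 13148 on days 2, 3 and 5. The goblet cell list had 17 measured genes with 8 above the 90th percentile, led by Zg16 and by Tff3, a trefoil peptide, at 16943, 15440 and 14450. Paneth cell genes were represented by 10 of 22, since 11 had no probe set of their own in the table used and Defa3 was dim, and Lyz1, the Paneth cell lysozyme, had 15831, 16147 and 15271. Smooth muscle was also prominent, with 12 of 20 genes above the 90th percentile and Acta2, smooth muscle actin, at 6717, 6754 and 8014. In bulk tissue, fewer cells of a type and less RNA per cell cannot be told apart, and this holds for every list below.

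Other cell types were seen at lower intensity. None of the 17 T cell genes, 17 endothelial genes, 21 macrophage and dendritic cell genes, 16 neuronal and glial genes or 10 tuft cell genes above the filter lay above the 90th percentile. Gzma, a granule protease of intraepithelial lymphocytes, was the brightest T cell gene, with 1239, 1368 and 925. Igha and Jchain, which make secreted IgA of plasma cells, had 3970, 4983 and 5462, and 469, 757 and 986. Of the markers with a probe set of their own, 4 of 17 of mast cells, eosinophils and neutrophils, 4 of 13 of hepatocytes and 4 of 10 of red cells were above the filter. Of 22 such pancreatic acinar genes 17 were above it. Of these 17, Reg1, Zg16 and Spink1, which intestine also makes, were by far the brightest, and the other 14 reached at most 1165, 1173 and 1132. Those 14 summed to 2917, 2687 and 2548, so a small amount of pancreatic RNA cannot be told apart from intestinal RNA here.

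The first comparison asked how far the control tissue itself moved between days 2, 3 and 5, and few genes differed by a large factor. On day 3 against day 2, 26 of 13042 genes differed by 2-fold or more (0.199%), 16 higher (0.123%) and 10 lower (0.0767%). On day 5 against day 2 they were 54 (0.414%), 26 higher (0.199%) and 28 lower (0.215%). On day 5 against day 3 they were 21 (0.161%), 6 higher (0.046%) and 15 lower (0.115%). At 1.5-fold the shares were 1.62%, 2.92% and 1.97% in the same order of comparisons. The median size of a difference was 0.12, 0.14 and 0.12 on the log2 scale, and the median of all genes was 0.03, -0.01 and -0.03. Over all genes 58.2% were higher on day 3 and 48.3% on day 5 against day 2, while 41.7% and 51.6% were lower. With 1 array a day these counts have no replicate check and no error.

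The single test of day that the series allows uses both genotypes as pools of the same day, in an additive limma fit with genotype as a term. It called 0 of 13042 genes in each comparison at a Benjamini-Hochberg adjusted p of 0.05 (0%). Its smallest adjusted p was 0.114 for day 3 against day 2, 0.0995 for day 5 against day 2 and 0.183 for day 5 against day 3. Unadjusted p-values under 0.05 were reached by 1275, 2758 and 2215 genes. The values below are therefore descriptions of 3 pools, and KO values are printed for some of the genes only. The smallest adjusted p for day 3 against day 2 was that of Dusp14, a dual-specificity phosphatase. It had 53.4, 139 and 106 in L/L on days 2, 3 and 5, and 77.2, 191 and 154 in KO. Both genotypes were lowest on day 2 and highest on day 3, with a limma coefficient of 1.35 ± 0.07 (SE) for day 3 against day 2 (adjusted p = 0.114). Without either day 5 array, which leaves the other day 5 array fitted exactly, limma called Dusp14 and Sprr1a on day 3 against day 2 (1.35 and 1.65, adjusted p = 0.0403 for each). Without the L/L array of day 5, day 5 rested on KO alone, and the fit called 1672 genes against day 2 and 871 against day 3. Without the KO array of day 5 it called Bco1 alone on day 5 against day 2 (-2.79, adjusted p = 0.0084), and without the KO array of day 2 Pla2g2a alone (-3.79, adjusted p = 0.0441).

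A group of epithelial genes was at its lowest on day 2. Gsdmc2, a member of the pore-forming gasdermin family, had 276, 1176 and 1304 on days 2, 3 and 5, which is log2 2.09 on day 3 and 2.24 on day 5 against day 2. A probe set shared by Gsdmc2 and Gsdmc4 had 1182, 3757 and 3535, and a probe set shared by Gsdmc2 and Gsdmc had 244, 735 and 831. All 3 probe sets had their low value on day 2, and signals of these paralogs cannot be separated on them. Pla2g4c, a cytosolic phospholipase A2, had 110, 400 and 741, so that it stood higher at each step, by 1.86 on day 3 and by 2.75 on day 5 against day 2. Its dimmer probe set ran the same way, by 0.87 and 1.57. Car4, a membrane-bound carbonic anhydrase, had 484, 1188 and 1356, and a further probe set gave 1.19 and 1.68. In KO these 3 genes ran the other way on day 5, with log2 -6.15 for Gsdmc2, -1.61 for Pla2g4c and -2.57 for Car4 against day 2.

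Others were low on day 2 in both genotypes. Slc20a1, a phosphate transporter of the cell membrane, had 523, 2103 and 1110 in L/L on days 2, 3 and 5 and 713, 1564 and 1266 in KO. Sprr1a, a small proline-rich protein of stressed epithelia, had 63.7, 215 and 196 in L/L, against 78.6, 227 and 115 in KO. Rab30, a small GTPase of the Golgi, had 783, 2021 and 1289 in L/L, against 1060, 1941 and 1345 in KO. All 3 peaked on day 3 in both genotypes. The second Slc20a1 probe set differed by 1.71 on day 3 and 1.26 on day 5 against day 2, whereas the second Rab30 probe set gave -0.03 and -0.38. Cirbp, a cold-inducible RNA-binding protein, had 266, 531 and 374, a log2 difference of 1.00 on day 3 in L/L and of 1.04 in KO. Egln3, an oxygen-sensing prolyl hydroxylase, had 376, 910 and 844, but its other probe set moved by 0.21 and 0.44 alone.

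Scpep1, a serine carboxypeptidase, stood higher at each step, with 777, 1421 and 2196 in L/L, against 914, 1296 and 1735 in KO. Its limma coefficient for day 5 against day 2 was 1.21 ± 0.15 (SE, adjusted p = 0.0995). Rgs13, a regulator of G-protein signalling in tuft cells, had 25.5, 108 and 65.2, and Ms4a4b, a lymphocyte membrane protein, had 29.8, 74.1 and 106. Day 2 was dim for both. Against the dim limit Rgs13 was at least 2.77-fold higher on day 3 and Ms4a4b at least 2.73-fold higher on day 5.

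**Figure D2:**
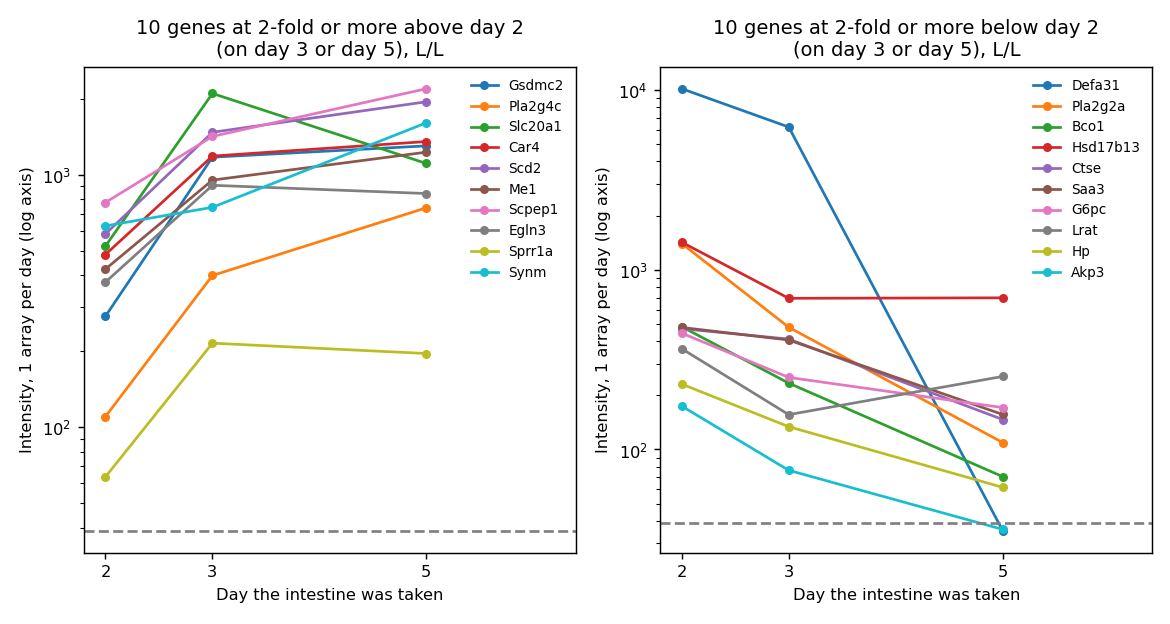
Intensity of 10 genes that lay 2-fold or more above day 2 (left) and 10 that lay 2-fold or more below it (right) on day 3 or day 5 in L/L, 1 array per point, log axis, with the dim limit of 38.9 as a dashed line. Most of the left-hand genes separate already on day 3, while Synm does so on day 5. Defa31 is lowest on day 5, and Hsd17b13 and Lrat are lowest on day 3 or level from there.

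Among genes that were lower later, the widest gap was that of Defa31, an alpha-defensin of Paneth cells. Its probe set had 10152 on day 2, 6213 on day 3 and 35.3 on day 5 in L/L, against 2772, 8196 and 10116 in KO. Since the day 5 value is dim, it was at least 261-fold lower on day 5 than on day 2. Other defensin probe sets showed no such gap. Defa39 had 8817, 6883 and 7626 in L/L, the probe set shared by Defa22 and Defa21 had 7704, 6676 and 8116, and that shared by Defa30 and Defa24 had 10613, 10258 and 11512. Pla2g2a, a secreted antibacterial phospholipase of Paneth cells, had 1397, 478 and 109 in L/L, against 569, 1382 and 230 in KO. Pla2g2a is known to be disrupted in some inbred mouse strains and intact in others, and alpha-defensin genes differ in number and sequence between strains. Not given in the sources used here is the strain of each pool.

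Several genes of the absorptive epithelium were also highest on day 2. Bco1, which cleaves beta-carotene to retinal, had 481, 234 and 70.6 in L/L, against 323, 148 and 105 in KO, so that it was lower at each step in both genotypes. Its limma coefficient for day 5 against day 2 was -2.19 ± 0.32 (SE, adjusted p = 0.0995). Hsd17b13, a lipid droplet protein, had 1421, 693 and 697 in L/L, against 1097, 419 and 287 in KO, while its dim second probe set gave -0.19 and -0.22. Akp3, an intestinal alkaline phosphatase, had 174, 76.6 and 35.9. S100g, the vitamin D-dependent calcium-binding protein of the duodenum, had 2543, 1125 and 1451. A pair of transporters had their low value on day 3 instead. Slc10a2, the ileal bile acid transporter, had 255 on day 2, 118 on day 3 and 243 on day 5. Slc15a2, a peptide transporter, had 59.0, 18.5 and 73.0, and with day 3 set to the dim limit it was at least 1.52-fold lower on day 3 than on day 2. A second Slc15a2 probe set, with 49.8, 40.6 and 41.6, did not share the gap between days 3 and 5.

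A further set stood apart on day 5. Saa3, an acute phase protein, had 477, 406 and 156 in L/L, against 443, 680 and 1332 in KO, opposite ways in the 2 genotypes. Hp, haptoglobin, had 231, 134 and 61.6. Ctse, cathepsin E, had 470, 411 and 147, and its dimmer probe set had 56.4, 47.3 and 48.3. Vwa1, a matrix protein, had 1053, 783 and 362 in L/L, against 831, 727 and 378 in KO, lowest on day 5 in both. On the other side Synm, an intermediate filament protein of muscle, had 628, 744 and 1609 in L/L, against 607, 553 and 1668 in KO, highest on day 5 in both (limma 1.41 ± 0.13 SE, adjusted p = 0.0995). Its second probe set was 0.76 higher on day 5 than on day 2.

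By day, 11 genes were lowest on day 2 by 2-fold or more against both other days and 12 were lowest on day 5. Highest on day 2 by the same measure were 4 genes, Pla2g2a, Bco1, Akp3 and Hsd17b13, and highest on day 5 were 4, Synm, Hddc3, Aspn and a gene model. Day 3 stood apart in fewer genes, 1 immunoglobulin segment at its highest and Slc15a2 and Slc10a2 at their lowest, of which Slc15a2 no longer counted once dim values were raised to the limit. A step of 1.5-fold or more at both intervals was seen in 6 genes downward (Defa31, Pla2g2a, Bco1, Akp3, Hp and Hes2) and in 2 upward (Pla2g4c and Scpep1). Hes2 had 74.7, 42.9 and 25.2. With the dim day 5 value raised to the limit, the downward steps were left in the other 5 genes. The dimmer Scpep1 probe set did not share the upward step from day 3 to day 5.

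Of the gene lists, interferon-stimulated genes had the highest median on day 3. These genes encode antiviral proteins and sensors, and are switched on by type I and type III interferons through the interferon-stimulated response element in their promoters. Of 28 measured members, 26 were higher on day 3 than on day 2 (median 0.41), where 58.2% of all genes were. Of these 26, 8 were higher by 1.5-fold or more (all genes 0.882%). The median on day 5 against day 2 was 0.25, with 20 members higher (all genes 48.3%). Of these 20, 7 were higher by 1.5-fold or more (all genes 1.15%). On day 5 against day 3 the median was -0.08 and 2 members were lower by 1.5-fold or more (all genes 1.42%) and 0 higher (all genes 0.552%). KO medians were 0.27 on day 3 and 0.33 on day 5 against day 2. No member passed the limma test, the smallest adjusted p being 0.441 on day 3 and 0.0995 on day 5 against day 2, both for Xaf1, and 0.19 on day 5 against day 3, for Irf7.

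Usp18, a brake on interferon signalling, had 589, 1134 and 1081 on days 2, 3 and 5 in L/L. Oas1a, an activator of antiviral RNA decay, had 1690, 3164 and 2692. Herc6, the mouse ligase for the ubiquitin-like ISG15, had 248, 461 and 450, and Trim30a, a tripartite-motif protein, had 418, 727 and 635. In all 4 genes day 2 was the lowest of the 3 pools, and days 3 and 5 lay close together on these probe sets. Dimmer Herc6 probe sets were also lowest on day 2, but differed by -0.22, -0.40 and -0.69 on day 5 against day 3. Xaf1, a pro-apoptotic protein, had 580, 1006 and 1369, while its second probe set had 576, 625 and 479. Irf7, the transcription factor that amplifies the response, had 1041, 1547 and 975, and Bst2, a tether of budding virus, had 302, 436 and 270. For these 2 the higher value was confined to day 3 among the 3 pools.

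Promoter windows are shown for Oas1a and Trim30a, which hold the letters of the response element (GAAA, any 2 bases, GAAA), and for Herc6, which does not, although their differences were alike. Each runs from 250 bases before to 50 bases after the RefSeq start, 5′ to 3′ on the gene's strand in GRCm38.p6, at chr5:120907476-120907775 (minus) for Oas1a, chr7:104465144-104465443 (minus) for Trim30a and chr6:57580742-57581041 (plus) for Herc6. Capitals mark a match on either strand. The run of capitals in Oas1a holds 2 overlapping matches, and that in Trim30a is a match on the opposite strand.
Oas1a: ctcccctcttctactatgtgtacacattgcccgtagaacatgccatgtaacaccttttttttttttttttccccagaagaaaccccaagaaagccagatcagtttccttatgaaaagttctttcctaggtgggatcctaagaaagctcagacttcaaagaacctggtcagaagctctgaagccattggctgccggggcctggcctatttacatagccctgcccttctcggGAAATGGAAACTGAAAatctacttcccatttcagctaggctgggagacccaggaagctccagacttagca
Trim30a: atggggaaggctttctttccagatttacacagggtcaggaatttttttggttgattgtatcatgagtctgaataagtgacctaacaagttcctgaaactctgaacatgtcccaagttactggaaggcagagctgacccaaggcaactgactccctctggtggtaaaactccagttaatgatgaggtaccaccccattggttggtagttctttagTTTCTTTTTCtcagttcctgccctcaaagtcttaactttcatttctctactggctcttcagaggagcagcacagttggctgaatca
Herc6: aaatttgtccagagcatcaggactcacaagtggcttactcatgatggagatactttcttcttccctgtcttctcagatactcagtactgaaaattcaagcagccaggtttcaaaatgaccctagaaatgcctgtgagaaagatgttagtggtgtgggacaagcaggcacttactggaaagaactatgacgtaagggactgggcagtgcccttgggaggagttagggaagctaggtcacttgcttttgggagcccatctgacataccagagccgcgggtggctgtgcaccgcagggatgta
The letters were found on either strand in the windows of 11 of 19 measured interferon genes that had a window (57.9%), against 379 of 10474 measured genes (3.62%). Of the 5 with a window and a difference of 1.5-fold or more on day 3, 2 held them. A match is a description of the sequence, and the absence of one says only that these letters are not in this window.

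**Figure D3:**
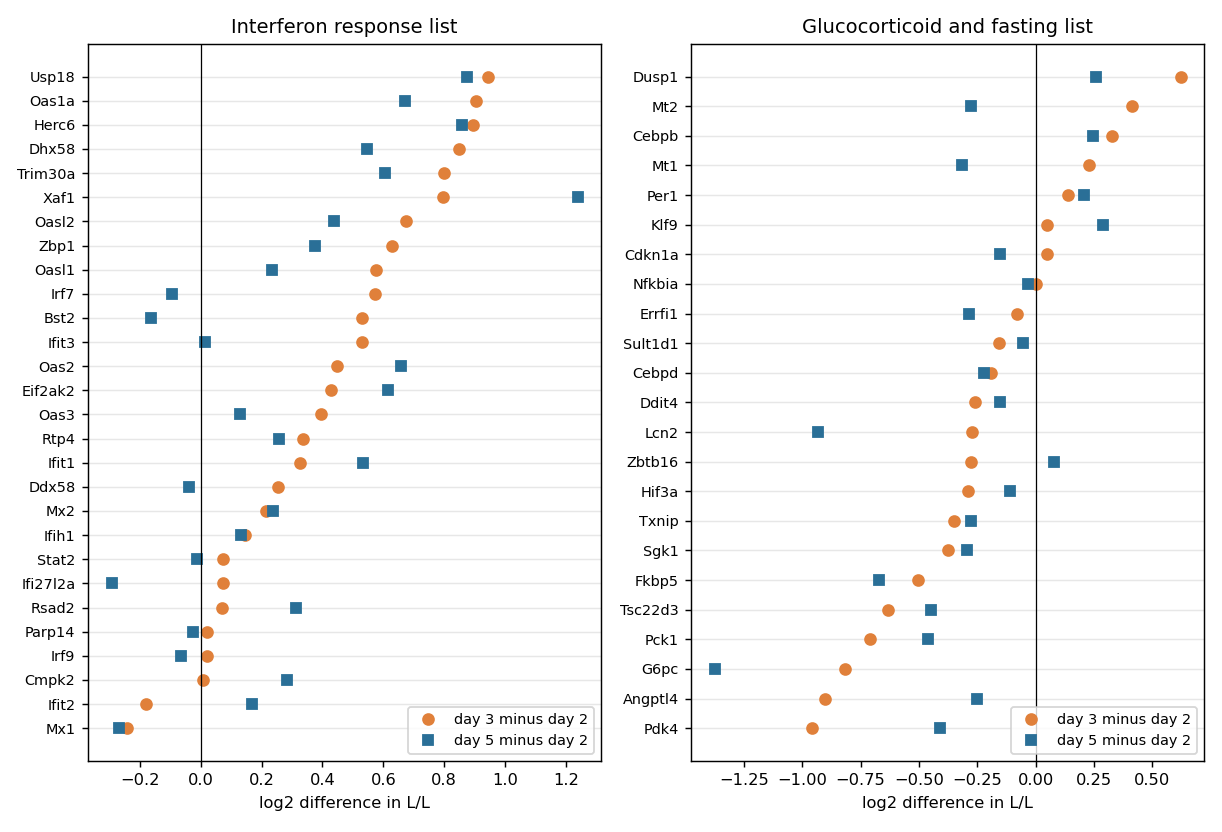
Log2 difference of each measured gene in L/L on day 3 against day 2 (circles) and on day 5 against day 2 (squares), for the interferon list (left) and the glucocorticoid and fasting list (right). On the left all circles but those of Ifit2 and Mx1 lie above 0, whereas on the right Pdk4, Angptl4, G6pc, Pck1 and Tsc22d3 have the lowest circles.

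Genes of antigen presentation were likewise higher on day 3. All 13 measured genes of MHC class I processing were higher than on day 2 (median 0.26), where 58.2% of all genes were, and 2 of them by 1.5-fold or more (all genes 0.882%). On day 5, 11 of the 13 were lower than on day 3 (median -0.22), where 7541 of 13042 genes were. Tap1, which carries peptides into the endoplasmic reticulum, had 395, 739 and 585, and Psmb9, a subunit of the immunoproteasome, had 579, 884 and 836. Of 16 GTPases and chemokines known for interferon-gamma, 4 were higher by 1.5-fold or more on day 3 (all genes 0.882%) and 1, the chemokine Cxcl10, was lower by that factor (all genes 0.736%). Igtp, a GTPase of defence against intracellular parasites, had 512, 879 and 761, and Ido1, which degrades tryptophan, had 184, 290 and 250. Cxcl10 had 158, 79.7 and 67.4. MHC class II genes had a median of 0.12 on day 3 against day 2 and -0.26 on day 5 against day 3. None of 11 was at 1.5-fold in either comparison (all genes 1.62% and 1.97%).

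Genes that glucocorticoids or fasting are known to raise lay lower after day 2. Of 23 measured, 15 were lower on day 3 (median -0.26), where 41.7% of all genes were. Of these 15, 5 were lower by 1.5-fold or more (all genes 0.736%). On day 5 against day 2, 18 were lower (median -0.25), where 51.6% of all genes were. Of these 18, 3 were lower by 1.5-fold or more (all genes 1.77%). Pdk4, which blocks glucose oxidation, had 1156, 594 and 869. Angptl4, an inhibitor of lipoprotein lipase, had 976, 522 and 820. Both were lowest on day 3. G6pc, the catalytic subunit of glucose-6-phosphatase, had 443, 252 and 171 in L/L, against 549, 354 and 83.0 in KO. Pck1, which feeds gluconeogenesis, had 3457, 2115 and 2510, and Tsc22d3 and Fkbp5, classic targets of the glucocorticoid receptor, had 2020, 1304 and 1480, and 1633, 1152 and 1024. Not all members ran this way. Dusp1 had 335, 516 and 401 and Mt2, a metallothionein, had 7506, 9993 and 6199. KO medians were -0.04 on day 3 and -0.32 on day 5 against day 2.

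Lipid synthesis genes stood higher. The enzymes of the sterol synthesis list turn acetyl-CoA into cholesterol. Of its 20 measured genes 19 were higher on day 3 than on day 2 (median 0.21), where 58.2% of all genes were. None was higher by 1.5-fold (all genes 0.882%). On day 5 against day 2, 17 were higher (median 0.22), where 48.3% of all genes were. Of these 17, 5 were higher by 1.5-fold or more (all genes 1.15%). Cyp51 had 423, 624 and 785, Sqle, the squalene epoxidase, had 557, 807 and 922, and Fdft1, the squalene synthase, had 626, 835 and 1145. These 3 stood higher at each step in L/L. In KO the list median was -0.05 on day 3 and -0.15 on day 5. Fatty acid synthesis genes had medians of 0.11 and 0.08, with Scd2 and Me1 as the 2 of 14 at 2-fold or more above day 2, on both days (all genes 0.123% on day 3 and 0.199% on day 5). Scd2, a fatty acid desaturase, had 584, 1475 and 1949 in L/L, against 780, 787 and 1440 in KO. Me1, which makes NADPH for lipid synthesis, had 423, 954 and 1231 in L/L, against 458, 544 and 697 in KO. The other Me1 probe set gave 1.12 and 1.06, and the other 2 Scd2 probe sets between 0.57 and 1.04.

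Antioxidant genes of the NRF2 pathway included 3 of 15 higher by 1.5-fold or more on day 3 (all genes 0.882%). Gpx2, the gastrointestinal glutathione peroxidase, had 3292, 5734 and 7710 in L/L, higher at each step. Gsr, glutathione reductase, had 1004, 1888 and 1993, and Nqo1, a quinone reductase, had 172, 282 and 229. Of 24 proliferation genes 20 were higher on day 3 than on day 2 (median 0.26) and 18 on day 5 (median 0.21), none by 1.5-fold. Over all genes 58.2% and 48.3% were higher, and 0.882% and 1.15% were higher by 1.5-fold or more. Mki67, present in dividing cells, had 894, 1301 and 1296, and Birc5, survivin, had 395, 567 and 573. Both were lowest on day 2. The KO median of this list on day 5 against day 2 was -0.32. Crypt stem cell genes had medians of 0.09 and 0.08 against day 2, and Olfm4, a stem cell secretory protein, had 5977, 5115 and 6061.

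Genes of the mature absorptive cell were mostly lower after day 2. Brush border genes had a median of -0.08 on day 3 and -0.16 on day 5 against day 2. On each day 14 of 18 were lower, where 41.7% and 51.6% of all genes were. Mep1a, a subunit of the protease meprin, had 3723, 2510 and 2096. Naaladl1, a brush border peptidase, had 7909, 7331 and 4776. Transporters had medians of -0.12 and -0.18, and Slc46a1, the folate transporter, had 2017, 1760 and 1259. Of 27 genes of fat absorption 15 were higher on day 3 than on day 2 (median 0.01), where 58.2% of all genes were. On day 5 against day 2, 21 were lower (median -0.11), where 51.6% of all genes were. Of these 21, 3 were lower by 1.5-fold or more (all genes 1.77%). Apob, the structural protein of chylomicrons, had 11018, 9826 and 7281, Dgat2, which makes triglyceride, had 6694, 6254 and 4188, and Apoe had 685, 557 and 379. All 3 were lowest on day 5, the day with the highest 3' to 5' ratio. The dimmer Dgat2 probe set was also lowest on day 5, with 4394, 4262 and 1578. The dimmer Apob probe set was highest on day 5, with 2636, 2525 and 2938. Fitm2, which the Cre deletes in KO and which acts in lipid droplet formation, had 193, 223 and 211 in L/L, and its relative Fitm1 had 176, 162 and 159.

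Genes of the proximal intestine had a median of -0.21 on day 3 and -0.24 on day 5 against day 2, while those of the distal intestine had 0.00 and -0.06. Slc40a1, the iron exporter, had 281, 169 and 191, and Cyp2b10, a drug-metabolising enzyme, had 2683, 1876 and 1163. The xenobiotic list as a whole had medians of 0.06 and -0.03. Distal genes did not run together. Fabp6, the ileal bile acid-binding protein, had 2952, 5169 and 5460, Fgf15, the hormone that bile acids induce, had 64.1, 102 and 67.5, and Slc10a2 dipped on day 3 as given above. Retinoid genes had medians of -0.21 and -0.25, with 12 and 13 of 15 lower (all genes 41.7% and 51.6%). Beside Bco1, Lrat, which esterifies retinol, had 363, 156 and 255, and its other probe set gave -0.50 and -0.24. Scarb1, which takes up carotenoids, had 194, 168 and 109.

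Secretory cell lists were lower on day 5 than on day 2 in L/L. The enteroendocrine list had the lowest median of all lists with 10 or more measured genes on day 5 against day 2, at -0.39, with 22 of 24 genes lower (all genes 51.6%) and 5 lower by 1.5-fold or more (all genes 1.77%). Chga, a granule protein, had 346, 324 and 199, Gip, the incretin of the upper gut, had 2409, 2037 and 1396, Sst, somatostatin, had 573, 388 and 330, and Ghrl, ghrelin, had 224, 153 and 133. Nts, neurotensin of the lower gut, had 1650, 1674 and 1599 and did not share the pattern. KO medians were -0.03 on day 3 and 0.08 on day 5 against day 2. The Paneth cell list had L/L medians of -0.14 and -0.26, beside KO medians of 0.17 and 0.43. It leaves out the bright defensin probe sets shared by several genes, and Defa39. On day 5 against day 2 in L/L the Defa22 and Defa21 probe set differed by 0.08. That of Defa30 and Defa24 differed by 0.12, and Defa39 by -0.21. Beside Defa31 and Pla2g2a, Reg4 had 1091, 814 and 605, whereas Ang4, an antimicrobial ribonuclease, had 3076, 4730 and 4426. The dimmer Ang4 probe set had 1096, 1308 and 983, lowest on day 5. Goblet cell genes had medians of -0.13 on both days, 16 of 17 being lower on day 3 (all genes 41.7%). Ccl6, a chemokine, had 2031, 1154 and 1263, and Muc13, a membrane mucin, had 8432, 6490 and 5526. Tuft cell genes were dim, with a median of 0.21 on day 3 and -0.07 on day 5 against day 2.

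Among stromal and immune cell lists smooth muscle had the median farthest from 0 on day 5 against day 2. Of its 20 genes 16 were higher on day 3 than on day 2 (median 0.06) and 17 on day 5 (median 0.26). Over all genes 58.2% and 48.3% were higher. The KO median of the list on day 5 was 0.54. Actg2, enteric smooth muscle actin, had 4280, 4583 and 6230, Synpo2, an actin-bundling protein, had 637, 711 and 1017, and Des, desmin, had 1498, 1580 and 2034. All 3 were highest on day 5. Fibroblast genes had medians of -0.14 and 0.07, and macrophage genes -0.01 and -0.17. Endothelial genes had -0.14 and -0.18, with 15 of 17 lower on day 5 (all genes 51.6%). C1qa, a complement subunit of macrophages, had 447, 398 and 290, while Cd163, a scavenger receptor of resident macrophages, had 46.2, 59.5 and 81.2. T cell genes had medians of 0.14 and -0.04. The plasma cell products Igha and Jchain ran apart from the medians of their list, which were -0.01 and -0.06 with both included. Jchain was 1.07 higher on day 5 than on day 2 in L/L and 1.29 higher in KO (limma 1.18 ± 0.17 SE, adjusted p = 0.0995).

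Lists of tissue attached to the gut were lower after day 2. The adipocyte list had medians of -0.20 and -0.31, and Adipoq, the fat cell hormone adiponectin, had 139, 87.9 and 76.1. The pancreatic acinar list had medians of -0.35 and -0.31, with Ctrb1, a chymotrypsinogen, at 102, 59.0 and 60.5. Reg1, a lectin of pancreas and gut, had 11798, 5528 and 7422. The KO medians were -0.17 and -0.07 for the adipocyte list and -0.03 and -0.24 for the acinar list. Summed over its 14 measured genes the adipocyte list came to 8707, 6570 and 6560 in L/L. Of these sums 3457, 2115 and 2510 came from Pck1, which is also in the glucocorticoid and fasting list. The acinar list without Reg1, Zg16 and Spink1 summed to 2917, 2687 and 2548, as given above. Whether the dissection or the tissue differed between days was not tested.

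**Figure D4:**
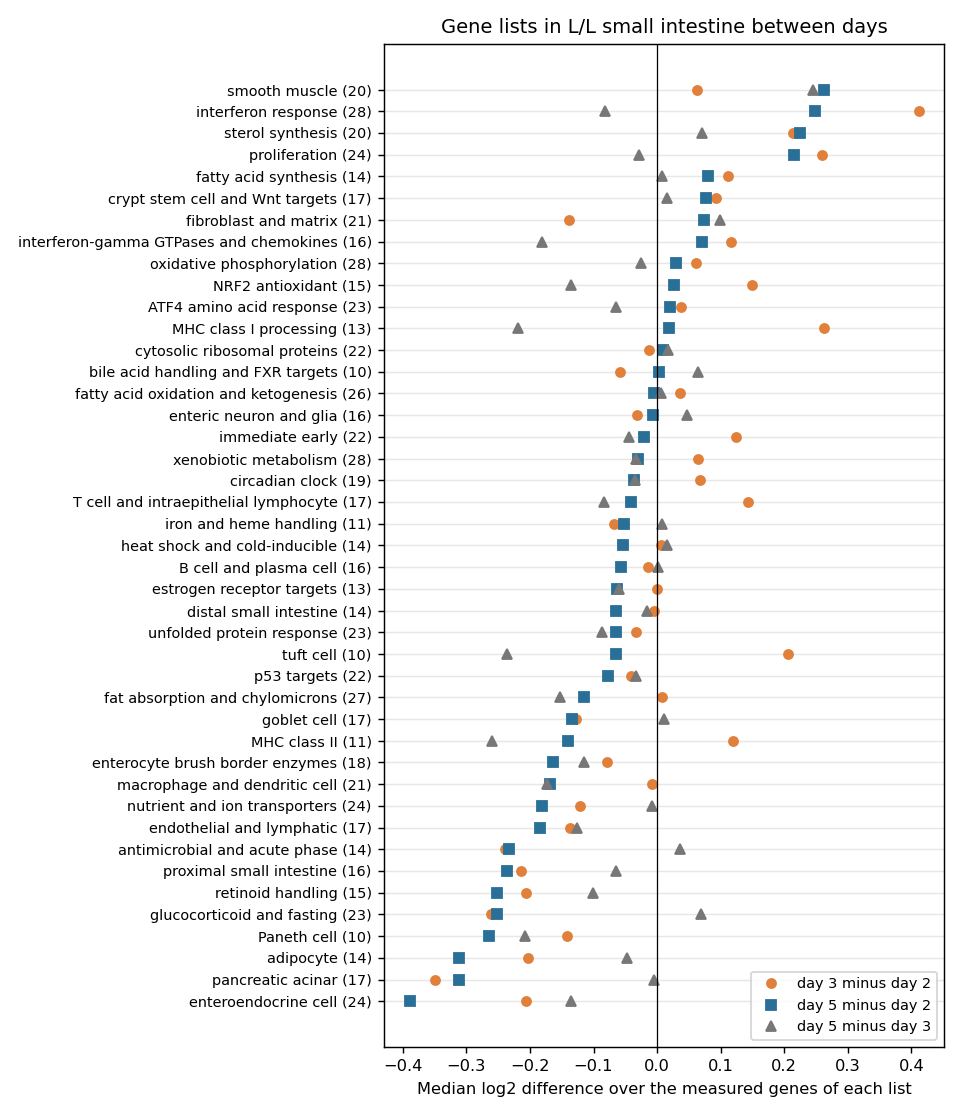
Median log2 difference in L/L over the measured genes of each list, with the number of genes in parentheses, for day 3 against day 2 (circles), day 5 against day 2 (squares) and day 5 against day 3 (triangles). Lists are ordered by day 5 against day 2, from smooth muscle at 0.26 to the enteroendocrine list at -0.39, and the interferon list has the highest circle at 0.41.

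Several other lists stayed close to the medians of all genes, but not all did. The 14 measured genes of the antimicrobial and acute phase list had medians of -0.24 and -0.23 against day 2. Immediate early genes had 0.12 and -0.02. Among all 43 lists with 10 or more measured genes, those described above included, 20 had a median within 0.1 of 0 on day 3 against day 2. On day 5 against day 2, 24 did. The 28 genes of oxidative phosphorylation had L/L medians of 0.06 and 0.03, beside KO medians of -0.03 and -0.36, and ribosomal proteins had -0.01 and 0.01 in L/L. Targets of p53 had -0.04 and -0.08, against KO medians of 0.32 and 0.50. None of 22 was at 1.5-fold in any L/L comparison (all genes 1.62%, 2.92% and 1.97%). Genes of the unfolded protein response had -0.03 and -0.06, and those of the ATF4 response 0.04 and 0.02. Estrogen receptor targets had 0.00 and -0.06, and Esr1, the receptor gene itself, had 56.1, 56.1 and 39.8 in L/L.

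The circadian clock list was read for a difference in the hour of sampling. Of 19 genes none was at 1.5-fold on day 3 against day 2 (all genes 1.62%). Only Npas2, a partner of Bmal1, was at 1.5-fold on day 5 against day 2 (all genes 2.92%), with 188, 219 and 293. The list medians were 0.07 and -0.04. Nr1d1, a repressor that cycles strongly, had 220, 329 and 277 in L/L, a difference of 0.58 on day 3, and 0.76 in KO. Dbp, a clock output gene, had 1722, 1974 and 1627, and Per2 had 403, 376 and 338.

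Set beside KO, whose day differences share no array with those of L/L, most of the large L/L differences had the same sign. So did most differences over all genes. Of the genes at 2-fold or more in L/L, 22 of 26 on day 3 against day 2, 39 of 54 on day 5 against day 2 and 14 of 21 on day 5 against day 3 had the same sign in KO. Over all genes the shares were 65.7%, 64.8% and 63.8%. Of the L/L genes at 1.5-fold or more, 85.8%, 80.8% and 80.5% had the same sign. Across the 13042 genes the differences correlated at Pearson 0.44, 0.33 and 0.36, given as a description. Genes are not independent, and both genotypes had their highest 3' to 5' ratios on day 5. At 2-fold in both genotypes, 6 genes ran the same way and 3 opposite ways on day 3, 14 and 6 on day 5 against day 2, and 3 and 0 on day 5 against day 3.

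**Figure D5:**
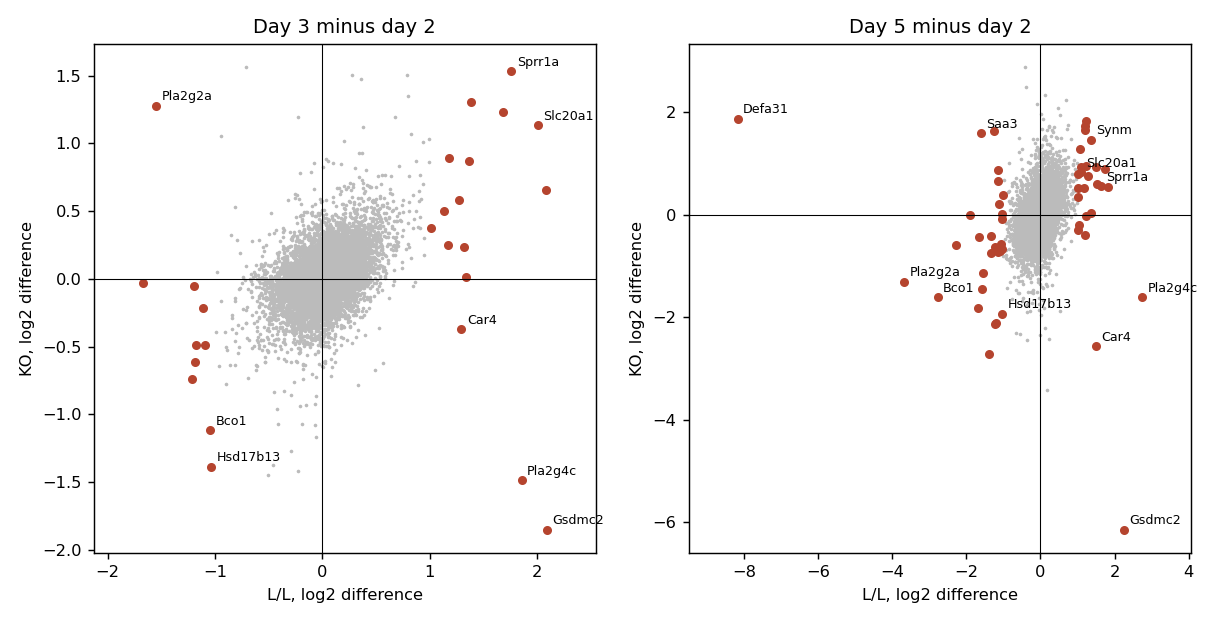
Log2 difference of each of 13042 genes in L/L (horizontal) and KO (vertical), on day 3 against day 2 (left) and day 5 against day 2 (right), with genes at 2-fold or more in L/L in red. Slc20a1, Sprr1a, Bco1 and Hsd17b13 lie in the quadrants of equal sign, and Gsdmc2 and Pla2g4c in that of higher L/L and lower KO on both days.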

How the data were processed

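RNA of whole mouse small intestine was labelled with biotin and hybridised to Affymetrix 3' expression arrays, 1 pool per array. The submitters' processing notes name Partek and RMA without a version or a role. The deposited intensity values, 1 per probe set and array, ran from 3.82 to 31146 and so were linear, whereas log2 had been assumed when the design was set; log2 was taken with no offset. All arrays had nearly the same quartiles, by a step not given in the sources used here.

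Of 45101 probe sets 64 were controls. In the platform annotation 34945 had 1 gene, 932 had several and were left out, and 9160 had no entry and stay unnamed. By gene ID, 34741 symbols were brought to their names in GRCm38.p6. The 18193 genes were each represented by their brightest probe set (mean log2 over all 6 arrays), and those with a mean over the 40th percentile of non-control probe sets stayed in (log2 5.28, an intensity of 38.9), 13042 in number. Where an array lay below this limit it was raised to it for a fold given as "at least".

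Differences between L/L days, without replicates, were not tested but counted at 2-fold and 1.5-fold. Day as a factor beside genotype was tested over all 6 arrays with limma 3.58.1 in R 4.3.3 (lmFit and eBayes, two-sided, Benjamini-Hochberg at 0.05), with 2 residual degrees of freedom and a prior of 3.03. Its p-values set the day difference averaged over the genotypes against a residual moderated by eBayes. That residual reflects only how far the day difference varied between the genotypes, and the number of arrays limits the precision. Alternatives changed the choice of probe set, the filter, an offset, the normalization, the fold, the fit and the arrays included. Of 47 gene lists the median and the counts are given.

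The members and lists were chosen with earlier results of these data known. Named genes were Fitm2, Fitm1, Esr1 and Gt(ROSA)26Sor, the 20 brightest, the 12 highest and lowest differences per comparison, the clock list, up to 5 members of any other list with the largest difference and the brightest 3 of each cell type list. Sex-linked genes outside their own list, unnamed gene models and segments of antigen receptors were not considered. Promoter sequences are those of RefSeq.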

Additional observations from a re-analysis of the deposited data

Results flagged for a closer look

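In 9 cases a gene at 2-fold or more between L/L days ran the opposite way at 2-fold or more in KO, with 1 array per genotype and day. The difference between the genotypes was not tested in any of them. On day 3 against day 2 Gsdmc2 differed by 2.09 in L/L and -1.85 in KO on the log2 scale, and Pla2g4c by 1.86 in L/L and -1.49 in KO. The Paneth cell gene Pla2g2a differed by -1.55 in L/L and by 1.28 in KO.

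For day 5 against day 2 the gasdermin gene Gsdmc2 differed by 2.24 in L/L and -6.15 in KO, the phospholipase gene Pla2g4c by 2.75 in L/L and -1.61 in KO, and Car4 by 1.49 in L/L and -2.57 in KO. The other 3 genes were lower in L/L and higher in KO. Defa31 differed by -8.17 in L/L and 1.87 in KO, and the acute phase gene Saa3 by -1.61 in L/L and 1.59 in KO. Mbl2, a mannose-binding lectin that is no member of the lists described and was chosen after its values were seen, differed by -1.25 in L/L and 1.62 in KO.

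No L/L group held enough arrays for an outlier to be looked for.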

How the results depend on the processing

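Counts at 2-fold in L/L depended on how dim values were treated. On day 3 against day 2 the 26 genes became 45 with no filter and 17 with an offset of 32. On day 5 against day 2 the 54 became 32 with the offset. On day 5 against day 3 the 21 became 42 with no filter, 13 with a filter at the 60th percentile and 8 with the offset. At 1.5-fold the 3 counts were 211, 381 and 257. Of 30 such counts under alternatives, 21 stayed within 1.5 times the value reported. Genes highest on day 2 numbered 1 with the offset, those highest on day 3 numbered 0 with the offset and with the 60th percentile, and those lowest on day 3 numbered 0 and 1 in these settings. Genes highest on day 5 numbered 1 and 2 in the same settings, and those lowest on day 5 numbered 6 with the offset. In a setting chosen after seeing the data, dim values raised to the limit, the genes lowest on days 2, 3 and 5 numbered 9, 1 and 11. The limma fit called between 0 and 2 genes on day 3 against day 2 when each array was left out, between 0 and 1672 on day 5 against day 2 and between 0 and 871 on day 5 against day 3. The highest counts came without the L/L array of day 5 (957 higher and 715 lower against day 2, 462 higher and 409 lower against day 3). In all other alternatives run, the choice of probe set, filter, offset, normalization, genotype term and eBayes options, it called 0 genes. Of 1128 list medians under alternatives 1103 moved by little, 24 moved by more and 1 changed sign, that of the hepatocyte list on day 5 against day 3, which was 0.0588 over the 1 gene left by the 60th percentile. Of 681 values of named genes 611 kept their direction and their side of 2-fold, 68 kept their direction below it, and 2 changed sign on another probe set. These were Alppl2 on day 3 against day 2, 0.0457 with the brightest probe set over the L/L arrays, and Ctse on day 5 against day 3, 0.0308 without probe sets that can bind several transcripts. The cause of the other shifts was not tested. No paired analysis was possible because the labels number no replicates and each group held 1 pool, beyond the genotype term that the limma fit already has. With 1 array a day, the spread between mice, the 3' to 5' ratio and the day cannot be told apart, and intensities near 38.9 carry the least information.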

Other observations

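Genes at 2-fold or more in L/L that the rule for names passed over were an immunoglobulin segment and 3 gene models. Igkv15-103 was 1.68 higher on day 3 than on day 2 and -1.50 on day 5 against day 3. The gene model 1810046K07Rik was 1.13 higher on day 3 than on day 2. A530047J11Rik was 1.09 higher on day 5 than on day 2 and 1.24 higher on day 5 than on day 3, and AA467197 was 1.21 higher on day 5 than on day 2. Cd55 and Steap4, which the rule did not name either, were among the genes lowest on day 2 and on day 5.

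Gt(ROSA)26Sor, a noncoding RNA of the locus into which CreERT2 was inserted in KO mice, had 442, 572 and 511 in L/L on days 2, 3 and 5. The Y-linked genes Kdm5d and Uty had 131, 92.3 and 131, and 128, 96.1 and 127.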
